A study of Mus musculus with 12 samples.

Results

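The genes described here are 10 genes of the NRF2 antioxidant response in the mouse retina: Nfe2l2, Slc7a11, Gclc, Gclm, Gsr, Txnrd1, Srxn1, Hmox1, Nqo1 and Osgin1. They were chosen by name, as the gene for NRF2 and commonly cited targets of it, with earlier results of these data known. By exact match to the gene names of the deposited table, all 10 were found among its 55487 genes. The study injected N-methyl-D-aspartate (NMDA), a glutamate receptor agonist that injures retinal neurons, into the vitreous of mice and measured RNA of the retina by sequencing. It held 12 libraries, 2 for each of 6 groups, made from polyadenylated RNA of more than 3 pooled retinas each. WT retinas came from C57BL/6J mice that received 1 μL of PBS, or the same volume of 40 mM NMDA (40 nmol). JNK3 KO retinas came from Jnk3-/- mice, in which Mapk10 is targeted in every cell, and received PBS or NMDA at the same dose. shPax6 retinas came from wild-type mice infected with the AAV2.7m8 vector pU6-shPax6-GFP, which carries a short hairpin RNA against Pax6 and drives it from the U6 promoter in any cell the virus enters, before the same PBS or NMDA. By the paper the virus was given to mice 2 months old. The labels state neither another age nor the time from NMDA to collection. None of the 12 libraries came from retinas given the shScramble control virus, so infection and knockdown of Pax6 cannot be told apart.

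NRF2, the protein of Nfe2l2, is a transcription factor that KEAP1 holds for degradation while a cell is not under oxidative stress. Oxidants and electrophiles modify KEAP1, and NRF2 then pairs with small MAF proteins at antioxidant response elements of genes for glutathione synthesis, the thioredoxin system, heme breakdown and quinone reduction, where BACH1 can act as a repressor. In the retina Müller glia hold much of the glutathione, and photoreceptors have a high oxidative load. The control of NRF2 by protein stability is not seen in RNA, so the values below are levels of transcripts and no measure of NRF2 activity.

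The promoters of the genes are shown because these genes share a described factor, and the stretches carry the letters looked for. RefSeq promoter windows of build GRCm38.p6, from 250 bases before to 50 bases after the start, were matched by symbol for 7 of the 10 genes, in 9 windows, and Hmox1, Gclc and Gsr had no entry. The core of the antioxidant response element was searched on both strands as TGACNNNGC, where N is any base, and 12.4% of all 32851 windows (4071) held it. The AP-1 letters TGACTCA, which share the opening TGAC with that core, were added after the promoters had been seen, and 5.2% of the windows (1709) held them. Each stretch is written 5′ to 3′ on the strand of its gene, with the match in capitals.
Nfe2l2, chr2:75704885-75704913, minus strand, core 240 bases before the start: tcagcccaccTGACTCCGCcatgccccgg
Gclm, chr3:122245413-122245441, plus strand, core on the opposite strand 134 bases before the start: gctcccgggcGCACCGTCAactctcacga
Txnrd1, chr10:82859104-82859132, plus strand, core on the opposite strand 92 bases before the second of 3 annotated starts: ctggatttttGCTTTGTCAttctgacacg
Srxn1, chr2:152105412-152105438, plus strand, AP-1 letters on the opposite strand 102 bases before the start: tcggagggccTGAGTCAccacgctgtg
Srxn1, chr2:152105469-152105495, plus strand, AP-1 letters on the opposite strand 45 bases before the start: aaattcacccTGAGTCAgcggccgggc
Osgin1, chr8:119437040-119437066, plus strand, AP-1 letters 97 bases before the start: gggcccctgcTGACTCAcgcttatgaa
The window of Srxn1 also held the core, past the start. Neither set of letters was in the windows of Nqo1 and Slc7a11. Only these exact letters were searched, and other forms of the antioxidant response element were not. A match describes the letters and is no evidence of binding.

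The deposited values were FPKM (fragments scaled by transcript length and library size), and their sums over genes were between 541210 and 576922 in 10 libraries and at 805627 and 820180 in the WT NMDA libraries. Fragment counts were not used here. In genes of 900 to 950 bases with 1 transcript, the median of the values inside a fixed window of low FPKM was 0.05 to 0.06 in each library. It was taken as a coarse estimate of what 1 fragment was worth. The window limits what that estimate could be, and it rests on 3 to 29 genes a library. On that scale Nqo1 rested on about 21 to 67 fragments a library, Osgin1 on about 45 to 256, Slc7a11 on about 85 to 525 and Hmox1 on about 198 to 3257, and the other 6 genes on at least 395. Replicate libraries differed by a median of 0.11 to 0.25 (log2, absolute), depending on the group. The paper calls the libraries of a group biological replicates, but whether they came from separate mice is not stated, so the p-values measure the spread between these libraries alone. Cone markers, which define retina, were found in every library, with Opn1sw at a mean of 124 FPKM. Fold changes below are log2 of NMDA over PBS, SE is their standard error in limma with 2 libraries a group, and a gene is called changed at an adjusted p under 0.05 over the 16471 genes tested. All 10 genes passed the filter on low values.

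The targeted genes were read first. After PBS, Pax6 had 173 and 177 FPKM in WT against 94.6 and 92.8 FPKM in shPax6 retinas, a difference of −0.90 (SE 0.07, adjusted p = 6.04e-05). After NMDA it was at 55.4 and 53.8 FPKM in WT and 67.5 and 58.7 FPKM in shPax6 retinas. The JNK3 KO libraries held Pax6 at 187 and 191 FPKM after PBS and 129 and 138 FPKM after NMDA. Pax6 was thus lower in shPax6 than in WT retinas after PBS, and the WT NMDA libraries were the lowest of all. Mapk10, which encodes JNK3, stood at 42.8 and 50.7 FPKM in WT PBS, 8.98 and 6.00 FPKM in WT NMDA, 20.9 and 21.3 FPKM in shPax6 PBS and 16.2 and 8.85 FPKM in shPax6 NMDA libraries. In the JNK3 KO libraries it was at 9.47 and 8.75 FPKM after PBS and 6.65 and 13.8 FPKM after NMDA, and the PBS groups differed by −2.34 (SE 0.36, adjusted p = 0.0215). The knockout libraries were not at 0, which exons their values came from is not shown by the gene table, and their range overlapped that of WT NMDA. In the transcript table Mapk10-201 was above 0 in the 4 JNK3 KO libraries alone (3.43, 1.00, 1.24 and 0.52 FPKM), and Mapk10-202 was at 0 in both JNK3 KO PBS and both WT NMDA libraries, against 3.02 and 5.58 FPKM in WT PBS.

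The WT NMDA libraries stood apart in a second measure. Over 16452 genes with a known length, the log2 fold change after NMDA in WT was lower in genes of greater spliced length (Spearman correlation −0.565 across genes, which are not independent replicates). Its median was 1.03 in genes under 1 kb and −1.17 in genes over 4 kb. The same correlation was −0.173 in shPax6 and 0.229 in JNK3 KO retinas. It was −0.045 in shPax6 PBS and −0.363 in JNK3 KO PBS against WT PBS, so a weaker trend was also seen without the WT NMDA libraries. For that reason values with each library corrected for its trend on length are given for the 10 genes beside responses and differences that rest on WT NMDA. Scaling every library to the same sum (TPM) moved the median of all genes in the WT response from −0.09 to −0.66, and that of the differences from −0.28 to −0.80 (WT minus shPax6) and from −0.03 to −0.62 (WT minus JNK3 KO). For the same responses and differences of the 10 genes, changes relative to the median of all genes are therefore given. With both WT NMDA libraries left out of the model, an alternative chosen after seeing the data, each of the 10 genes kept its call in the 4 comparisons that do not use them. The part of length or library make-up in the results was not tested.

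Nfe2l2 (ENSMUSG00000015839, chr2:75675513-75704641, minus strand) encodes NRF2 itself. In WT retinas Nfe2l2 stood at 16.5 and 17.5 FPKM after PBS and at 15.3 and 15.5 FPKM after NMDA. In shPax6 retinas its level was 14.4 and 14.2 FPKM after PBS and 21.9 and 28.1 FPKM after NMDA. Levels in JNK3 KO retinas were 18.1 and 16.6 FPKM after PBS and 17.3 and 17.4 FPKM after NMDA. The shPax6 NMDA libraries were the only ones above 20 FPKM, and the JNK3 KO and WT PBS groups overlapped. Nfe2l2 rose after NMDA in shPax6 retinas, by 0.79 (SE 0.12, adjusted p = 0.00103), a call lost with only the groups compared (adjusted p = 0.0902 in limma). The WT change was −0.14 (SE 0.12, adjusted p = 0.331) and the JNK3 KO change 0.00 (SE 0.12, adjusted p = 1), neither called, and the WT value was −0.05 relative to the median and −0.01 after length correction. The test of the difference in response, WT minus shPax6, gave −0.93 (SE 0.17, adjusted p = 0.0015), which was −0.65 relative to the median of all genes and −0.66 (adjusted p = 0.0128, range over the alternatives 7.51e-05 to 0.0128) after length correction. In WT minus JNK3 KO it gave −0.14 (SE 0.17, adjusted p = 0.506), −0.11 relative to the median and −0.03 after length correction. The TPM scale alone among the alternatives brought calls there, at −0.71 in WT and −0.73 in WT minus JNK3 KO, beside TPM medians of −0.66 and −0.62.

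Slc7a11 (ENSMUSG00000027737, chr3:49892526-50443614, minus strand) encodes xCT, the cystine and glutamate exchanger that brings in cystine for glutathione synthesis. In WT retinas Slc7a11 stood at 1.04 and 1.00 FPKM after PBS and at 1.74 and 1.31 FPKM after NMDA. The shPax6 libraries held 0.74 and 0.54 FPKM after PBS and 2.44 and 3.32 FPKM after NMDA. JNK3 KO retinas had 0.80 and 0.76 FPKM after PBS and 1.58 and 1.52 FPKM after NMDA. It was the second lowest of the 10 genes in level per length, with its highest values in the shPax6 NMDA libraries, and within each genotype both NMDA libraries were above both PBS libraries. The rise was called in shPax6 retinas, 2.01 (SE 0.30, adjusted p = 0.00112), a call lost with only the groups compared (adjusted p = 0.0761 in limma). In WT the change was 0.52 (SE 0.30, adjusted p = 0.164) and in JNK3 KO retinas 0.91 (SE 0.30, adjusted p = 0.0965), which passed at 0.91 without shPax6 NMDA replicate 1 (adjusted p = 0.0398) or shPax6 NMDA replicate 2 (0.0399). On the TPM scale the WT change was −0.01, or 0.65 relative to the TPM median. It was called in WT with quantile normalization (0.93), as was the JNK3 KO change (1.17), and the JNK3 KO change also with no intensity trend (0.91). Its transcript, with a spliced length of 8781 bases, is the longest of the 10, and the correction for length moved it most: the WT change, 0.62 relative to the median of all genes, became 2.10 (adjusted p = 0.000568, range over the alternatives 0.000568 to 1). The difference WT minus shPax6 was −1.48 (SE 0.43, adjusted p = 0.0175), −1.20 relative to the median, and became −0.06 (adjusted p = 0.934, range over the alternatives 0.00375 to 0.934) after length correction. Its call was lost there and with quantile normalization (−0.73). WT minus JNK3 KO, −0.38 (SE 0.43, adjusted p = 0.49) and −0.35 relative to the median, changed direction with that correction, to 1.48 (adjusted p = 0.0283, range over the alternatives 0.0283 to 0.69).

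Gclc (ENSMUSG00000032350, chr9:77754535-77794485) encodes the catalytic subunit of glutamate-cysteine ligase, the enzyme of the first step of glutathione synthesis. In WT retinas Gclc stood at 14.2 and 14.1 FPKM after PBS and at 6.99 and 6.84 FPKM after NMDA. With shPax6 it was at 14.0 and 13.6 FPKM after PBS and at 10.6 and 13 FPKM after NMDA. The JNK3 KO libraries held 13 and 12.6 FPKM after PBS and 15.4 and 14.7 FPKM after NMDA. Both WT NMDA libraries were below 7 FPKM, and the other 10 libraries were above 10 FPKM. In WT retinas Gclc fell by 1.03 (SE 0.11, adjusted p = 4.08e-05) after NMDA, −0.93 relative to the median of all genes and −0.46 (adjusted p = 0.00852, range over the alternatives 1.96e-06 to 0.00852) after length correction. The changes in shPax6 retinas, −0.24 (SE 0.11, adjusted p = 0.144), and in JNK3 KO retinas, 0.23 (SE 0.11, adjusted p = 0.25), were not called. Without shPax6 NMDA replicate 2 the shPax6 value was −0.38 (adjusted p = 0.0097), which passed. That value was called also with 75th-percentile scaling (−0.36) and quantile normalization (−0.39). The difference WT minus shPax6 was −0.79 (SE 0.16, adjusted p = 0.00281), −0.51 relative to the median, but −0.13 (adjusted p = 0.536, range over the alternatives 0.000126 to 0.536) after length correction. It lost its call also with quantile normalization (−0.35). WT minus JNK3 KO was −1.26 (SE 0.16, adjusted p = 0.000151), −1.22 relative to the median and −0.64 (adjusted p = 0.0121, range over the alternatives 1.25e-05 to 0.0121) after the correction.

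Gclm (ENSMUSG00000028124, chr3:122245557-122270732), whose promoter holds the core shown above, encodes the modifier subunit of the same ligase. In WT retinas Gclm stood at 23.4 and 20.3 FPKM after PBS and at 14.7 and 17.9 FPKM after NMDA. In shPax6 retinas its level was 10.5 and 13.6 FPKM after PBS and 22.5 and 29.2 FPKM after NMDA. Levels in JNK3 KO retinas were 23.6 and 22.4 FPKM after PBS and 27.5 and 28.3 FPKM after NMDA. After PBS the shPax6 libraries were the lowest of the 12, and after NMDA they overlapped the JNK3 KO libraries at the top of the order. Gclm rose in shPax6 retinas, by 1.10 (SE 0.16, adjusted p = 0.00113), a call lost with only the groups compared (1.10) and with the most abundant transcript (0.99). In WT retinas both NMDA libraries were below both PBS libraries, and the change of −0.42 (SE 0.16, adjusted p = 0.0503), −0.33 relative to the median of all genes, missed the threshold. It passed with TPM, 75th-percentile scaling (−0.50), a pseudocount of 1 (−0.40) or 0.5 (−0.42), the filter on the mean of the 12 libraries (−0.42) or the replicate block (−0.42), and without WT NMDA replicate 2 (−0.56, adjusted p = 0.0445). It also passed at −0.42 without shPax6 PBS replicate 1 (adjusted p = 0.0374), shPax6 PBS replicate 2 (0.0377), shPax6 NMDA replicate 1 (0.0422) or shPax6 NMDA replicate 2 (0.0424), and after length correction it was −0.66 (adjusted p = 0.0113, range over the alternatives 0.000561 to 0.318). The JNK3 KO change was 0.28 (SE 0.16, adjusted p = 0.355), and −0.36 with the most abundant transcript, in the other direction and not called.

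The response of Gclm in WT differed from that in shPax6 retinas, by −1.52 (SE 0.23, adjusted p = 0.000664), −1.24 relative to the median and −1.57 after length correction. WT minus JNK3 KO was −0.70 (SE 0.23, adjusted p = 0.0311), −0.67 relative to the median and −1.01 after length correction. With the most abundant transcript it was −0.05 (adjusted p = 0.948, range over the alternatives 0.00127 to 0.948), and its call was lost there, with no filter (−0.70) and with no intensity trend (−0.70). That second difference lost its call without WT PBS replicate 1 (−0.60, adjusted p = 0.112) or WT NMDA replicate 1 (−0.56, adjusted p = 0.109). It lost it also without JNK3 KO PBS replicate 1 (−0.74, adjusted p = 0.0666), JNK3 KO PBS replicate 2 (−0.67, adjusted p = 0.0901), JNK3 KO NMDA replicate 1 (−0.72, adjusted p = 0.0752) or JNK3 KO NMDA replicate 2 (−0.68, adjusted p = 0.0909).

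Gsr (ENSMUSG00000031584, chr8:33652523-33698163) encodes glutathione reductase, which returns oxidised glutathione to its reduced form. In WT retinas Gsr stood at 16.6 and 15.3 FPKM after PBS and at 14.7 and 14.2 FPKM after NMDA. The shPax6 libraries held 9.96 and 9.87 FPKM after PBS and 14.3 and 16.9 FPKM after NMDA. JNK3 KO retinas had 18.1 and 14.0 FPKM after PBS and 10.1 and 11.3 FPKM after NMDA. The 2 lowest groups were shPax6 PBS and JNK3 KO NMDA, and the other 4 overlapped in order. Gsr rose after NMDA in shPax6 retinas, by 0.65 (SE 0.14, adjusted p = 0.00754), and in JNK3 KO retinas it fell by 0.57 (SE 0.14, adjusted p = 0.0331). The shPax6 call was lost with only the groups compared (adjusted p = 0.0981 in limma). The WT change was −0.14 (SE 0.14, adjusted p = 0.414), −0.05 relative to the median and −0.13 after length correction, and was called on the TPM scale (−0.71). With the most abundant transcript, Gsr-201, the JNK3 KO value was −0.16 (adjusted p = 0.474, range over the alternatives 0.0286 to 0.474). The JNK3 KO call was lost there and, at −0.57, with no filter, only the groups compared, no intensity trend or the replicate block. Among left-out libraries, it was lost at −0.57 without WT PBS replicate 1 (adjusted p = 0.0593) or WT PBS replicate 2 (0.0591). Other losses came without JNK3 KO PBS replicate 1 (−0.39, adjusted p = 0.204), JNK3 KO NMDA replicate 1 (−0.49, adjusted p = 0.197) or JNK3 KO NMDA replicate 2 (−0.65, adjusted p = 0.11).

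For Gsr the difference WT minus shPax6 was −0.79 (SE 0.20, adjusted p = 0.00921), −0.51 relative to the median and −0.62 after length correction, and lost its call with quantile normalization (−0.53) and with the most abundant transcript (−0.35). The difference from JNK3 KO was 0.43 (SE 0.20, adjusted p = 0.1), 0.46 relative to the median and 0.41 after length correction, and −0.16 on the TPM scale (0.45 relative to the TPM median), not called. It passed with quantile normalization (0.59), with the most abundant transcript (0.59) and without JNK3 KO PBS replicate 2 (0.61, adjusted p = 0.0253).

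Txnrd1 (ENSMUSG00000020250, chr10:82833951-82897712), which also holds the core in 1 of its 3 windows, encodes cytosolic thioredoxin reductase, which uses NADPH to reduce thioredoxin. In WT retinas Txnrd1 stood at 21.2 and 20.2 FPKM after PBS and at 17.3 and 18.7 FPKM after NMDA. With shPax6 it was at 20.2 and 19.8 FPKM after PBS and at 35.9 and 34.0 FPKM after NMDA. The JNK3 KO libraries held 21.0 and 19.2 FPKM after PBS and 27.7 and 28.5 FPKM after NMDA. The 3 PBS groups overlapped near 20 FPKM, the shPax6 NMDA and JNK3 KO NMDA libraries were above all of them, and the WT NMDA libraries were below. Txnrd1 rose after NMDA in shPax6 retinas, by 0.80 (SE 0.08, adjusted p = 0.000124), and in JNK3 KO retinas, by 0.48 (SE 0.08, adjusted p = 0.00741). The JNK3 KO call was lost with the most abundant transcript (0.50) and without JNK3 KO PBS replicate 2 (0.42, adjusted p = 0.0535) or JNK3 KO NMDA replicate 2 (0.46, adjusted p = 0.0634).

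In WT retinas Txnrd1 changed direction with the processing: −0.20 (SE 0.08, adjusted p = 0.0596) as deposited, −0.11 relative to the median of all genes, and 0.27 (adjusted p = 0.0281, range over the alternatives 2.18e-05 to 0.805) after length correction. The WT value passed the threshold with TPM (−0.77) and 75th-percentile scaling (−0.28), without WT NMDA replicate 2 (−0.26, adjusted p = 0.0437), and at −0.20 without shPax6 NMDA replicate 1 (adjusted p = 0.0351) or shPax6 NMDA replicate 2 (0.035). The difference of Txnrd1 in WT minus shPax6 was −1.01 (SE 0.12, adjusted p = 0.000132), −0.72 relative to the median of all genes and −0.43 (adjusted p = 0.0225, range over the alternatives 7.61e-06 to 0.0225) after length correction. In WT minus JNK3 KO it was −0.68 (SE 0.12, adjusted p = 0.000966), −0.65 relative to the median and −0.18 (adjusted p = 0.3, range over the alternatives 1.36e-05 to 0.3) after length correction. That call was lost also with the most abundant transcript (−0.45).

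Srxn1 (ENSMUSG00000032802, chr2:152105516-152111376) encodes sulfiredoxin 1, which repairs overoxidised peroxiredoxins. In WT retinas Srxn1 stood at 31.5 and 33.1 FPKM after PBS and at 46.4 and 46.7 FPKM after NMDA. In shPax6 retinas its level was 19.8 and 21.9 FPKM after PBS and 33.4 and 31.9 FPKM after NMDA. Levels in JNK3 KO retinas were 29.5 and 30.2 FPKM after PBS and 31.3 and 34.6 FPKM after NMDA. Its highest libraries were those of WT NMDA and its lowest those of shPax6 PBS, and JNK3 KO NMDA, shPax6 NMDA and WT PBS overlapped between them. Srxn1 rose in WT retinas, by 0.53 (SE 0.08, adjusted p = 0.000347), 0.62 relative to the median and 0.79 after length correction, although on the TPM scale the value was −0.05 and, relative to the TPM median, 0.61. It rose in shPax6 retinas by 0.64 (SE 0.08, adjusted p = 0.000365), a call lost with only the groups compared (adjusted p = 0.0543 in limma). Its change in JNK3 KO retinas was 0.14 (SE 0.08, adjusted p = 0.329). The WT and shPax6 responses did not pass the test of their difference, −0.12 (SE 0.11, adjusted p = 0.406), which was 0.16 relative to the median and 0.27 (adjusted p = 0.103, range over the alternatives 0.00112 to 0.692) after length correction. WT minus JNK3 KO was 0.39 (SE 0.11, adjusted p = 0.0176), 0.42 relative to the median and 0.65 after length correction. It lost its call with 75th-percentile scaling (0.30), with quantile normalization (0.09) and without WT PBS replicate 1 (0.35, adjusted p = 0.0577) or JNK3 KO NMDA replicate 1 (0.31, adjusted p = 0.0597). On the TPM scale that difference was −0.21 (adjusted p = 0.155, range over the alternatives 0.00256 to 0.595), or 0.41 relative to the TPM median.

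Hmox1 (ENSMUSG00000005413, chr8:75093621-75100589) encodes heme oxygenase 1, which breaks heme down to biliverdin, iron and carbon monoxide. In WT retinas Hmox1 stood at 10.8 and 10.4 FPKM after PBS and at 43.7 and 42.9 FPKM after NMDA. The shPax6 libraries held 5.84 and 7.74 FPKM after PBS and 115 and 114 FPKM after NMDA. JNK3 KO retinas had 17.0 and 15.1 FPKM after PBS and 36.3 and 37.5 FPKM after NMDA. No neighbouring groups overlapped in the order shPax6 NMDA, WT NMDA, JNK3 KO NMDA, JNK3 KO PBS, WT PBS, shPax6 PBS. Hmox1 rose in all 3 genotypes: by 2.02 (SE 0.12, adjusted p = 1.07e-06) in WT, by 4.07 (SE 0.12, adjusted p = 1.98e-07) in shPax6 and by 1.19 (SE 0.12, adjusted p = 0.000598) in JNK3 KO retinas. These are ratios of 4.07, 16.8 and 2.29. Hmox1 in WT was 2.12 relative to the median and 1.57 after length correction. The call held in each of the 3 under every processing alternative and with each library left out, with WT values from 1.46 to 2.05, shPax6 values from 3.86 to 4.27 and JNK3 KO values from 1.11 to 1.29. The highest adjusted p among the alternatives was 0.00126 in WT, 0.019 in shPax6 and 0.0256 in JNK3 KO retinas. WT minus shPax6 was −2.05 (SE 0.17, adjusted p = 2.35e-05), −1.77 relative to the median of all genes and −2.29 (adjusted p = 3.68e-05, range over the alternatives 5.69e-06 to 0.000799) after length correction. WT minus JNK3 KO was 0.83 (SE 0.17, adjusted p = 0.00318), 0.86 relative to the median, but 0.28 (adjusted p = 0.264, range over the alternatives 0.00092 to 0.288) after length correction, and 0.24 on the TPM scale, no longer called in either. The TPM value was 0.85 relative to the TPM median.

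Nqo1 (ENSMUSG00000003849, chr8:107388225-107403206, minus strand) encodes NAD(P)H quinone dehydrogenase 1, which reduces quinones. In WT retinas Nqo1 stood at 1.57 and 1.70 FPKM after PBS and at 0.64 and 1.40 FPKM after NMDA. With shPax6 it was at 1.06 and 1.27 FPKM after PBS and at 0.89 and 1.91 FPKM after NMDA. The JNK3 KO libraries held 0.83 and 2.01 FPKM after PBS and 1.41 and 1.27 FPKM after NMDA. All 6 groups overlapped their neighbours in the order of levels, and the 2 libraries of a group differed by 1.02 (WT NMDA), 1.02 (shPax6 NMDA) and 1.18 (JNK3 KO PBS) on the log2 scale. Its changes after NMDA were −0.72 (SE 0.51, adjusted p = 0.256) in WT, 0.16 (SE 0.51, adjusted p = 0.849) in shPax6 and 0.04 (SE 0.51, adjusted p = 0.994) in JNK3 KO retinas. The 95% intervals, from −1.87 to 0.44, from −0.99 to 1.32 and from −1.12 to 1.19, left room for a fall of 1 in WT, a rise of 1 in shPax6 and either in JNK3 KO retinas, so the missed threshold does not show that Nqo1 was unchanged. With 1 library left out its values ranged from −1.23 to −0.21 in WT, from −0.35 to 0.67 in shPax6 and from −0.55 to 0.63 in JNK3 KO retinas, so the direction turned in the last 2, and none was called. In shPax6 retinas it turned also with quantile normalization (−0.10) and length correction (−0.05). The WT value was −0.62 relative to the median and −1.18 after length correction. WT minus shPax6 gave −0.88 (SE 0.72, adjusted p = 0.339), −0.60 relative to the median and −1.13 after length correction. The difference from JNK3 KO gave −0.76 (SE 0.72, adjusted p = 0.418), −0.72 relative to the median and −1.32 after length correction.

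Osgin1 (ENSMUSG00000074063, chr8:119434124-119446256), with the AP-1 letters in its window, encodes oxidative stress induced growth inhibitor 1. In WT retinas Osgin1 stood at 3.75 and 4.22 FPKM after PBS and at 5.99 and 6.09 FPKM after NMDA. In shPax6 retinas its level was 1.32 and 1.31 FPKM after PBS and 6.90 and 7.49 FPKM after NMDA. Levels in JNK3 KO retinas were 3.01 and 4.11 FPKM after PBS and 1.92 and 1.75 FPKM after NMDA. The shPax6 group held both the lowest libraries, after PBS, and the highest, after NMDA. Osgin1 rose in shPax6 retinas, by 2.36 (SE 0.19, adjusted p = 3.33e-05), and in JNK3 KO retinas it fell by 0.90 (SE 0.19, adjusted p = 0.02). The JNK3 KO call was lost at −0.90 with only the groups compared and at −0.79 with the most abundant transcript. Its other losses came without JNK3 KO PBS replicate 2 (−0.69, adjusted p = 0.117), JNK3 KO NMDA replicate 1 (−0.97, adjusted p = 0.0852) or JNK3 KO NMDA replicate 2 (−0.84, adjusted p = 0.132).

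In WT retinas Osgin1 rose by 0.59 (SE 0.19, adjusted p = 0.0259), 0.68 relative to the median of all genes, with both NMDA libraries above both PBS libraries. On the TPM scale the value was 0.03, or 0.68 relative to the TPM median. Over the processing alternatives it ranged from 0.03 to 1.11. The call was lost after length correction, 0.39 (adjusted p = 0.141, range over the alternatives 0.00213 to 0.931). It was lost also without WT PBS replicate 1 (0.51, adjusted p = 0.127), WT PBS replicate 2 (0.67, adjusted p = 0.0544), WT NMDA replicate 1 (0.60, adjusted p = 0.0704) or WT NMDA replicate 2 (0.58, adjusted p = 0.0789). The responses of Osgin1 differed in both tests: −1.77 (SE 0.27, adjusted p = 0.000705) in WT minus shPax6 and 1.49 (SE 0.27, adjusted p = 0.00155) in WT minus JNK3 KO. Relative to the median of all genes these were −1.49 and 1.53, and after length correction −1.80 and 1.23.

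**Figure D1:**
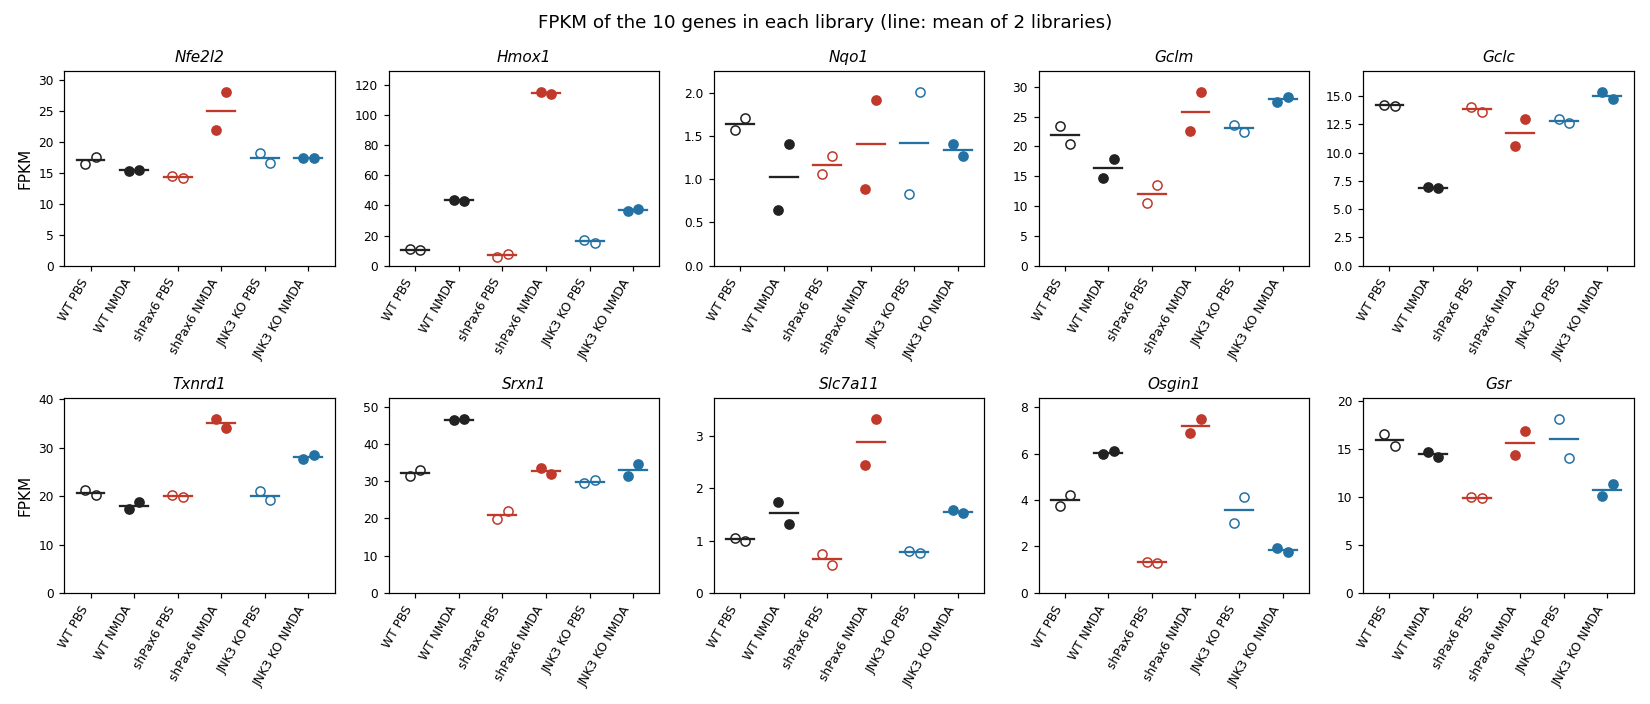
FPKM of each of the 10 genes (vertical axis, from 0) in the 12 libraries by group (horizontal axis), with open circles for PBS, filled circles for NMDA and lines for means of 2 libraries. Hmox1 is higher after NMDA in all 3 genotypes, and its shPax6 NMDA libraries, at 114 and 115 FPKM, are the highest points of any panel.

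The comparison of NMDA with PBS in WT retinas addressed what excitotoxic injury does to the genes in the unmodified retina. In WT, 3 of the 10 genes were called higher (Hmox1, Srxn1 and Osgin1), against 26.0% of all genes tested, and 1 lower (Gclc), against 33.8%. The share called higher was near that of all genes and the share called lower was below it, and neither was tested for the 10 genes as a list. Their median change was −0.14, beside −0.09 for all genes. After length correction it was 0.13, a change of direction, beside 0.01 for all genes. On the TPM scale it was −0.71, beside −0.66. On the TPM scale the split was 1 higher and 5 lower, beside 13.6% and 50.2% of all genes, and after length correction it was 4 higher and 2 lower, beside 23.8% and 22.1%. The 4 were Hmox1, Srxn1, Slc7a11 and Txnrd1, and the 2 were Gclc and Gclm. The count called higher became 2 without either WT PBS library or either WT NMDA library, through Osgin1 (values above). The count called lower became 3 without WT NMDA replicate 2, shPax6 NMDA replicate 1 or shPax6 NMDA replicate 2, and 2 without either shPax6 PBS library, through Gclm and Txnrd1.

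In shPax6 retinas the comparison asked the same after knockdown of Pax6. Here 8 of the 10 genes were called higher, against 19.1% of all genes, and 0 were lower, against 11.0%. The share called higher was thus above that of all genes. The 10 genes were chosen with earlier results of these data known, so this and their other shares are descriptions. At an unadjusted p under 0.05 in limma the count lower was also 0. Nqo1 and Gclc were the genes not called. The median of the 10 genes was 0.80, beside 0.10 for all genes. The count was 8 also on the TPM scale (16.8% of all genes), after length correction (13.7%) and with each library left out, and 7 with the most abundant transcript (13.6%). It was 3 (Hmox1, Txnrd1 and Osgin1) when the spread came from the shPax6 libraries alone, where 4.10% of all genes were called higher. The other 5 then had adjusted p from 0.0543 to 0.0981. Without shPax6 NMDA replicate 2 the count lower was 1, Gclc at −0.38.

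In JNK3 KO retinas 2 of the 10 genes were called higher (Hmox1 and Txnrd1), against 4.33% of all genes, and 2 lower (Osgin1 and Gsr), against 6.10%. Both shares were above those of all genes, but 3 of the 4 calls were lost when 1 of several libraries was left out. The call of Hmox1 alone held with each library left out. Their median was 0.19, beside −0.01 for all genes. The counts were 1 higher without JNK3 KO PBS replicate 2 or JNK3 KO NMDA replicate 2, and 3 without either shPax6 NMDA library, where Slc7a11 passed at 0.91 (adjusted p = 0.0398 and 0.0399). The count lower was 1 without either WT PBS library or either JNK3 KO PBS library, and 0 without either JNK3 KO NMDA library.

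**Figure D2:**
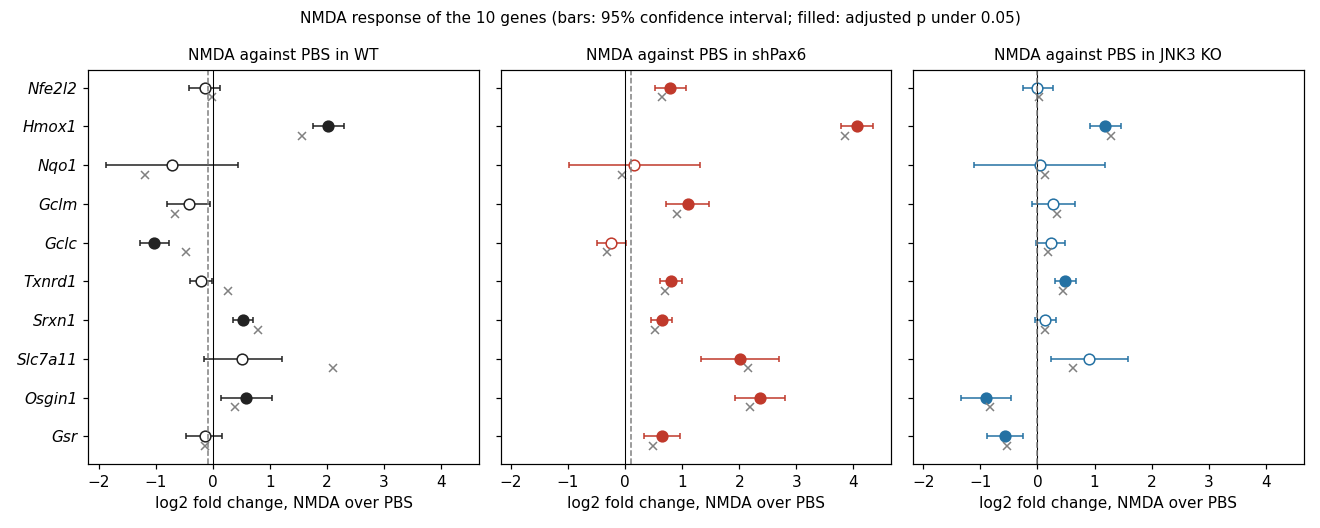
Log2 fold change of NMDA over PBS (horizontal axis) of each gene (vertical axis) in WT, shPax6 and JNK3 KO retinas, with bars for 95% confidence intervals, filled circles for an adjusted p under 0.05, grey crosses for values after length correction and a dashed line for the median of all genes. In shPax6 retinas 8 of the 10 circles are filled and to the right of 0, whereas 4 are filled in each of the other two panels.

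The responses were then tested against each other. In WT minus shPax6, 0 of the 10 genes had a higher response in WT, against 18.3% of all genes, and 8 had a lower one, against 31.4%. The limma count higher at an unadjusted p under 0.05 was also 0. The median difference was −0.97, beside −0.28 for all genes, and −0.64 after length correction, beside 0.03 for all genes. The 8 genes were Nfe2l2, Slc7a11, Gclc, Gclm, Gsr, Txnrd1, Hmox1 and Osgin1. After length correction 6 were called lower, beside 16.8% of all genes, as Slc7a11 and Gclc lost their calls, and on the TPM scale 9, beside 47.2%, as Srxn1 joined (−0.64, but 0.15 relative to the TPM median). The PBS groups, which the 2 responses use as their controls, differed to an extent that varied by gene: shPax6 PBS against WT PBS was −1.53 in Osgin1, −0.86 in Gclm, −0.68 in Gsr and −0.65 in Hmox1, and, not called, −0.61 in Slc7a11, −0.25 in Nfe2l2, −0.05 in Txnrd1 and −0.04 in Gclc. After NMDA itself, Nfe2l2, Slc7a11, Gclc, Gclm, Txnrd1, Hmox1 and Osgin1 had both shPax6 libraries above both WT libraries, Srxn1 had both below, and Gsr and Nqo1 overlapped. The NMDA groups were not tested against each other.

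In WT minus JNK3 KO, 3 of the 10 genes had a higher response in WT (Hmox1, Srxn1 and Osgin1), against 23.5% of all genes, and 3 a lower one (Gclm, Gclc and Txnrd1), against 27.9%. The median difference was −0.26, beside −0.03 for all genes. Its direction turned to 0.13 after length correction, beside 0.06 for all genes, and it was −0.85 on the TPM scale, beside −0.62. These shares are close to the background. On the TPM scale the split was 1 higher and 4 lower, beside 12.8% and 42.3% of all genes. The count higher was 2 without WT PBS replicate 1 or JNK3 KO NMDA replicate 1, through Srxn1, and 4 without JNK3 KO PBS replicate 2, through Gsr (values above). The count lower was 2 without WT PBS replicate 1, WT NMDA replicate 1 or any of the 4 JNK3 KO libraries, through Gclm. The 2 tests of differences share the WT libraries, so they are not independent, and the values of each gene are given side by side above for that reason.

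**Figure D3:**
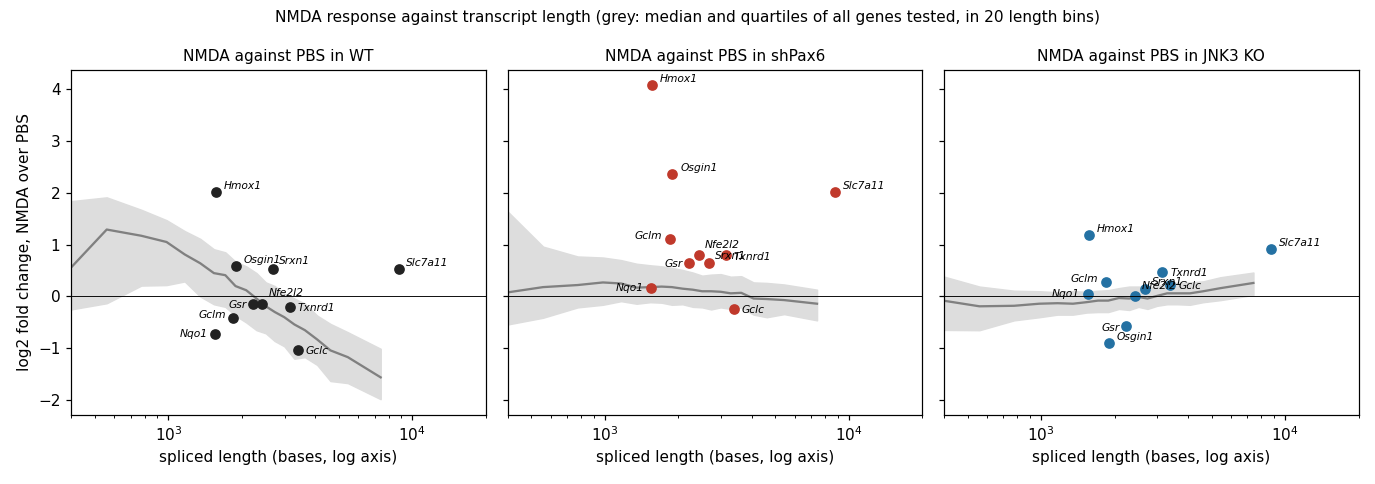
Log2 fold change of NMDA over PBS (vertical axis) against spliced length in bases (horizontal axis, log scale) for the 10 genes in WT, shPax6 and JNK3 KO retinas, over a grey line and band for the median and quartiles of all genes in 20 bins of length. In WT the grey line rises from the shortest bin to the next and then falls with length. Hmox1, at 2.02, and Srxn1, at 0.53, lie above the band there. Slc7a11, at 0.52, lies to the right of the end of the band and higher than that end. In shPax6 retinas the line is nearly flat.

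Retinas that received PBS were compared for what the genotypes differ in before NMDA. In shPax6 PBS against WT PBS, 0 of the 10 genes were called higher, against 5.36% of all genes, and 5 lower, against 11.2%. The limma count higher at an unadjusted p under 0.05 was 0 as well. The differences were −1.53 (SE 0.19, adjusted p = 0.000957) in Osgin1, −0.86 (SE 0.16, adjusted p = 0.00767) in Gclm, −0.68 (SE 0.14, adjusted p = 0.0108) in Gsr, −0.65 (SE 0.12, adjusted p = 0.0075) in Hmox1 and −0.63 (SE 0.08, adjusted p = 0.000902) in Srxn1. In each of these genes both shPax6 libraries were below both WT libraries. The median of the 10 was −0.62, beside −0.06 for all genes. The count lower was 1 (Gsr) with only the groups compared, where 3.65% of all genes were called lower, as Osgin1, Gclm, Hmox1 and Srxn1 had adjusted p from 0.0507 to 0.151. It was 4 with the most abundant transcript, beside 7.83%, as Gclm was at −0.50. Without WT PBS replicate 1 the count lower was 2, since Hmox1 (−0.62, adjusted p = 0.0598), Gclm (−0.76, adjusted p = 0.0739) and Gsr (−0.62, adjusted p = 0.0844) missed the threshold. Gsr missed it also without WT PBS replicate 2 (−0.74, adjusted p = 0.0527), and Gclm without shPax6 PBS replicate 1 (−0.68, adjusted p = 0.0549). Nfe2l2 passed at −0.25 without shPax6 NMDA replicate 1 (adjusted p = 0.0371) or shPax6 NMDA replicate 2 (0.0378).

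In JNK3 KO PBS against WT PBS, 0 of the 10 genes were called higher, against 1.10% of all genes, and 0 lower, against 0.407%. At an unadjusted p under 0.05 in limma, 1 was higher and 0 were lower. The 1 gene was Hmox1, with both JNK3 KO libraries above both WT libraries and a difference of 0.60 (SE 0.12, adjusted p = 0.0524), or 0.50 (adjusted p = 0.17, range over the alternatives 0.047 to 0.17) after length correction. It passed with a pseudocount of 1 (0.56) or 0.5 (0.58) and with the filter on the mean of the 12 libraries (0.60). It passed at 0.60 also without shPax6 PBS replicate 1 (adjusted p = 0.0169) or shPax6 PBS replicate 2 (0.0172).

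The transcript table shows which transcripts made up each gene. A single transcript held most of the FPKM of 9 genes over the 12 libraries: Nqo1-201 (the 1 transcript listed), Hmox1-201 (99.6%), Gclc-201 (98.7%), Nfe2l2-201 (95.6%), Srxn1-201 (94.4%), Slc7a11-201 (92.9%), Osgin1-206 (92.5%), Gsr-201 (77.0%) and Txnrd1-201 (72.5%). In Gclm the most abundant, Gclm-206, held 43.6%. The make-up of Gsr, Gclm, Txnrd1 and Osgin1 is given by group. Gsr-202, a processed transcript of 718 bases, held 32.9% of Gsr in the WT PBS group and was listed at 0 in both WT NMDA libraries. Gsr-201, which codes for the enzyme, stood at 11.3 and 10.1 FPKM after PBS and at 14.7 and 14.2 FPKM after NMDA in WT, so that the most abundant transcript rose (0.43, adjusted p = 0.00946, range over the alternatives 0.00135 to 0.982) while the gene had −0.14. In JNK3 KO retinas Gsr-202 held 37.5% after PBS and 13% after NMDA, while Gsr-201 stood at 9.99 and 9.82 and then 9.21 and 8.48 FPKM. Gclm-205, a transcript with a retained intron, held 18.8% of Gclm in WT PBS and was listed at 0 in WT NMDA libraries, and it went from 0.368% to 6.05% in shPax6 and from 6.77% to 21.4% in JNK3 KO retinas. Its replicates lay far apart, at 2.72 and 0.45 FPKM in JNK3 KO PBS and at 0.68 and 2.65 FPKM in shPax6 NMDA libraries. Txnrd1-208 went from 19.9% to 1.35% of Txnrd1 in WT, from 27.3% to 12.3% in shPax6 and from 8.68% to 20.7% in JNK3 KO retinas. Osgin1-202, of 381 bases, held 23.4% of Osgin1 in WT PBS, 19.5% in shPax6 PBS and 7.68% in JNK3 KO PBS libraries, and it was listed at 0 in all 6 NMDA libraries. These shares are descriptions of estimates by RSEM, and their change was not tested.

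**Figure D4:**
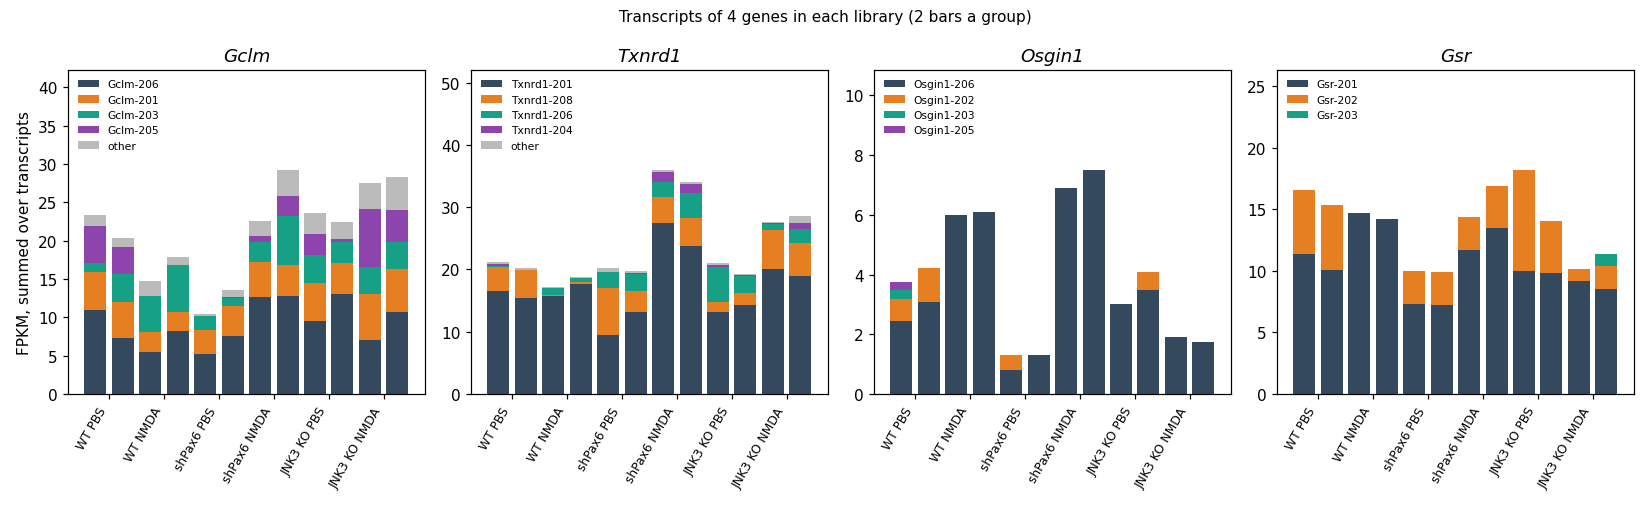
FPKM of the transcripts (vertical axis, stacked from 0) of Gclm, Txnrd1, Osgin1 and Gsr in each library, with 2 bars for each group (horizontal axis), coloured for the 4 most abundant transcripts and grey for the others. Gsr-202 and Gclm-205 are absent from the WT NMDA bars, and Osgin1-202 from the NMDA bars of all 3 genotypes, where they are listed at 0. Osgin1-202 is at 0 also in shPax6 PBS replicate 2 and JNK3 KO PBS replicate 1, and Gclm-205 in shPax6 PBS replicate 1.

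Other genes of the pathway were counted by role, and their medians are read against those of all genes, −0.09 (WT), 0.10 (shPax6) and −0.01 (JNK3 KO). After length correction the medians of all genes were 0.01 (WT) and −0.03 (shPax6). Their counts are read against the shares of all genes called higher and lower: 26.0% and 33.8% in WT, 19.1% and 11.0% in shPax6, 4.33% and 6.10% in JNK3 KO retinas. Of 11 genes that control NRF2 (KEAP1 and its ligase, related factors, small MAF and BACH proteins), 10 were tested. In WT 4 were called higher and 4 lower (median 0.02), in shPax6 retinas 3 and 1 (median 0.23), and in JNK3 KO retinas 0 and 0 by limma (median −0.02), where 0 had an unadjusted p under 0.05. Bach1, a repressor that competes with NRF2 for the same elements, stood at 5.95 and 5.47 FPKM in WT PBS and 0.96 and 1.46 FPKM in WT NMDA libraries. It fell by 2.17 (SE 0.21, adjusted p = 1.64e-05), and was at −0.99 after length correction. Bach2, its relative, fell by 2.67 (SE 0.35, adjusted p = 0.000128), and −1.22 after the correction. Bach1 had 6.19 and 5.69 FPKM in shPax6 NMDA and 5.34 and 6.13 FPKM in JNK3 KO NMDA libraries, above the WT NMDA libraries. Maff, a small MAF partner, went from 1.10 and 1.08 to 6.28 and 8.53 FPKM in shPax6 retinas, a rise of 2.64 (SE 0.23, adjusted p = 4.86e-05). Sqstm1, whose protein p62 binds KEAP1, rose there by 0.32 (SE 0.06, adjusted p = 0.00264), and 0.14 after length correction, no longer called.

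Of 6 genes that supply NADPH, 3 were called higher and 1 lower in WT (median 0.20), 2 and 1 in shPax6 retinas (median 0.06) and 0 and 0 in JNK3 KO retinas by limma (median −0.05), where 0 were higher and 2 lower at an unadjusted p under 0.05. Taldo1, for transaldolase of the pentose phosphate pathway, rose in WT by 1.57 (SE 0.07, adjusted p = 2.64e-07), and 0.78 after length correction. Tkt, for transketolase of the same pathway, rose in WT by 0.58 (SE 0.06, adjusted p = 1.89e-05), and 0.49 after correction, and in shPax6 retinas it fell by 0.49 (SE 0.06, adjusted p = 0.000225). Its WT value on the TPM scale was 0.01. Pgd, for phosphogluconate dehydrogenase, rose in shPax6 retinas by 0.50 (SE 0.07, adjusted p = 0.000991).

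Of 19 genes for detoxification and transport, 16 were tested. In WT 6 were called higher and 2 lower (median 0.05), in shPax6 retinas 7 and 0 (median 0.47, with 1 lower at an unadjusted p under 0.05 in limma) and in JNK3 KO retinas 2 and 1 (median 0.02). Gstp1, a glutathione S-transferase, went from 147 and 148 to 594 and 598 FPKM in WT, a rise of 2.01 (SE 0.12, adjusted p = 8.37e-07), and 0.85 after length correction. Gsta4, a transferase for lipid peroxidation products, rose in WT by 1.57 (SE 0.14, adjusted p = 1.33e-05), and 0.60 after correction. In shPax6 retinas Aox1, for aldehyde oxidase 1, rose by 1.48 (SE 0.26, adjusted p = 0.00292) and Mgst1, a microsomal transferase, by 1.39 (SE 0.18, adjusted p = 0.000545).

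The 6 genes of heme and iron handling were called higher in 5 cases and lower in 0 in WT (median 1.44, and 0.53 after length correction), 3 and 0 in shPax6 retinas (median 0.65) and 1 and 1 in JNK3 KO retinas (median −0.25). The limma counts lower at an unadjusted p under 0.05 were 0 in both WT and shPax6. Ftl1, for ferritin light chain, stood at 476 and 491 FPKM in WT PBS and 2139 and 2101 FPKM in WT NMDA libraries, and at 452 and 436 and then 1354 and 1478 FPKM in shPax6 libraries. It rose by 2.13 (SE 0.06, adjusted p = 2.09e-08) in WT, and 1.15 after length correction, and by 1.67 (SE 0.06, adjusted p = 2.43e-07) in shPax6 retinas. Fth1, for ferritin heavy chain, rose in WT by 1.81 (SE 0.05, adjusted p = 2.09e-08), and 0.79 after length correction. Blvrb, for biliverdin reductase B, rose in shPax6 retinas by 1.54 (SE 0.24, adjusted p = 0.00137).

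Of 18 genes of glutathione use, 16 were tested. In WT 12 were called higher and 1 lower (median 1.00, and 0.45 after length correction), in shPax6 retinas 8 and 1 (median 0.67) and in JNK3 KO retinas 2 and 1 (median 0.02). Gpx3, for secreted glutathione peroxidase, stood at 4.91 and 3.43 FPKM in shPax6 PBS and 115 and 135 FPKM in shPax6 NMDA libraries, a rise of 4.89 (SE 0.21, adjusted p = 9.55e-07). In WT it was at 5.77 and 6.80 and then 4.79 and 7.13 FPKM, which overlapped. Gpx8, a peroxidase of the endoplasmic reticulum, rose in shPax6 retinas by 1.62 (SE 0.12, adjusted p = 1.8e-05). Gpx7, its relative, rose in WT by 2.02 (SE 0.28, adjusted p = 0.000181), and 1.20 after length correction. Ggt1, which cleaves glutathione outside the cell, rose in WT by 2.06 (SE 0.54, adjusted p = 0.00849), but 1.17, no longer called, after correction.

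The 14 genes of the thioredoxin and peroxiredoxin systems gave 9 higher and 2 lower in WT (median 0.51, and 0.53 after length correction), 7 and 0 in shPax6 retinas (median 0.26, with 0 lower at an unadjusted p under 0.05 in limma) and 1 and 2 in JNK3 KO retinas (median 0.09). Prdx5, a peroxiredoxin, went from 138 and 139 to 615 and 632 FPKM in WT, a rise of 2.17 (SE 0.05, adjusted p = 1.45e-08), and 1.22 after length correction. In WT Sesn3, for sestrin 3, fell by 2.05 (SE 0.11, adjusted p = 5.68e-07), and −0.46 after correction, with a spliced length of 8871 bases. Txnip, for a protein that binds and inhibits thioredoxin, rose in shPax6 retinas by 1.89 (SE 0.19, adjusted p = 0.000116) and Txn1, for thioredoxin, by 0.98 (SE 0.06, adjusted p = 9.41e-06).

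The 5 genes of superoxide dismutases and catalase gave 3 higher and 1 lower in WT (median 1.00, and 0.38 after length correction) and 3 and 0 in shPax6 retinas (median 0.52, with 0 lower at an unadjusted p under 0.05 in limma). In JNK3 KO retinas they gave 0 and 0 (median −0.09), where 0 were higher and 1 lower unadjusted. Sod1, the cytosolic dismutase, rose in WT by 1.56 (SE 0.12, adjusted p = 3.69e-06), and 0.38 after correction, and Ccs, its copper chaperone, by 1.61 (SE 0.12, adjusted p = 4.05e-06), and 0.58 after it. In shPax6 retinas Sod3, the secreted dismutase, rose by 3.02 (SE 0.40, adjusted p = 0.000533) and Cat, for catalase, by 0.92 (SE 0.13, adjusted p = 0.000714). Another stress response that controls Slc7a11, the ATF4 response, was counted with 9 genes: 8 higher and 0 lower in WT (median 1.00, 0 lower unadjusted), 9 and 0 in shPax6 retinas (median 0.97, 0 lower unadjusted) and 2 and 0 in JNK3 KO retinas (median 0.16, 1 lower unadjusted in limma).

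On the TPM scale the WT medians, beside −0.66 for all genes, were −0.54 (control of NRF2), −0.37 (NADPH), −0.52 (detoxification and transport), 0.87 (heme and iron), 0.43 (glutathione use), −0.06 (thioredoxin and peroxiredoxin), 0.43 (dismutases and catalase) and 0.43 (ATF4 response). Those of the first 3 and of the thioredoxin genes thus changed sign with the scale, though each was above the median of all genes. The WT counts higher and lower also moved. After length correction they were 4 and 2 (control of NRF2), 3 and 0 (NADPH), 3 and 2 (detoxification and transport, median −0.01), 3 and 0 (heme and iron), 8 and 1 (glutathione use), 7 and 2 (thioredoxin and peroxiredoxin), 3 and 0 (dismutases and catalase) and 8 and 1 (ATF4 response). With TPM they were, in the same order, 3 and 5, 1 and 3, 3 and 5, 4 and 0, 8 and 4, 5 and 3, 3 and 2, and 5 and 1. Over all genes 13.6% were then called higher and 50.2% lower, against 26.0% and 33.8% as deposited. The balance turned for NADPH and for detoxification and transport on a scale that moves all genes alike, so that turn describes no change particular to them. In shPax6 retinas the counts after length correction were, in the same order, 1 and 1 (median 0.14), 1 and 2 (−0.07), 5 and 1 (0.24), 3 and 0 (0.46), 7 and 1 (0.46), 6 and 0 (0.07), 2 and 0 (0.27), and 7 and 0 (0.78).

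Among the ATF4 genes, Phgdh, for the first enzyme of serine synthesis, went from 7.43 and 4.04 to 25.3 and 23.3 FPKM in WT and from 7.26 and 6.12 to 21.3 and 17.9 FPKM in JNK3 KO retinas. It rose by 2.13 (SE 0.25, adjusted p = 6.92e-05) in WT, and 1.77 after length correction, and by 1.54 (SE 0.25, adjusted p = 0.00602) in JNK3 KO retinas. Ddit3, for the factor CHOP, rose in WT by 2.06 (SE 0.09, adjusted p = 1.51e-07), and 1.01 after length correction. Trib3, a pseudokinase gene, rose in shPax6 retinas by 1.54 (SE 0.29, adjusted p = 0.00415).

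Most of the named genes above were given in 1 genotype, and their values elsewhere are these. In WT, with the value after length correction second, called higher were Maff (1.48, 1.28), Sqstm1 (0.87, 0.65), Pgd (0.50, 0.49), Blvrb (1.75, 0.74), Gpx8 (1.54, 0.57), Txn1 (1.66, 0.75) and Trib3 (1.04, 0.88), called lower was Cat (−0.49, −0.33), and not called were Aox1 (−0.32, 0.67), Mgst1 (−0.07, −1.23), Gpx3 (−0.10, −0.53), Txnip (0.45, 0.50) and Sod3 (−0.67, 0.03). After that correction Cat was no longer called and Mgst1 was called lower. In shPax6, called higher were Taldo1 (0.37), Gsta4 (0.51), Fth1 (0.91), Prdx5 (0.32), Ccs (0.52), Phgdh (1.20) and Ddit3 (0.64), and not called were Bach1 (0.25), Bach2 (0.15), Gstp1 (0.02), Gpx7 (−0.24), Ggt1 (1.27), Sesn3 (−0.17) and Sod1 (0.08). After length correction Taldo1 (0.12), Gsta4 (0.26), Prdx5 (0.07) and Ccs (0.27) were no longer called there, while Fth1, Phgdh and Ddit3 were. In JNK3 KO, called higher were Aox1 (1.15), Ftl1 (0.58) and Gpx8 (0.73), called lower were Fth1 (−0.37), Prdx5 (−0.32) and Txnip (−1.03), and not called were Bach1 (0.35), Bach2 (0.48), Maff (0.09), Sqstm1 (0.01), Taldo1 (−0.02), Tkt (−0.17), Pgd (0.13), Gstp1 (−0.18), Gsta4 (0.40), Mgst1 (0.16), Blvrb (0.05), Gpx3 (0.07), Gpx7 (0.31), Ggt1 (−0.26), Sesn3 (0.27), Txn1 (−0.08), Sod1 (−0.32), Ccs (−0.14), Sod3 (−0.08), Cat (0.19), Ddit3 (0.00) and Trib3 (0.37).

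Cell type markers moved with the groups, and in whole retina fewer cells of a type and less RNA per cell cannot be told apart. The 7 markers of monocytes and macrophages, of which Lyz2 was the most abundant, summed to 114 and 124 FPKM in WT PBS and 199 and 199.6 FPKM in WT NMDA libraries. In shPax6 retinas they summed to 39.8 and 41.5 FPKM after PBS and 347 and 353 FPKM after NMDA. In JNK3 KO retinas the sums were 102 and 94.6 FPKM after PBS and 79.6 and 78.8 FPKM after NMDA. All 7 were called higher after NMDA in shPax6 retinas, 4 higher and 2 lower in WT, and 1 higher and 3 lower in JNK3 KO retinas. The shPax6 groups thus held both the lowest and the highest sums, as they did for Nfe2l2, Hmox1, Slc7a11 and Osgin1, while the other 6 genes had other orders. The sum in JNK3 KO retinas, carried by Lyz2, went down after NMDA, the median by gene was 0.16 and Hmox1 was called higher, and what links them was not tested. None of the 7 was at 0 in any library.

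The 5 neutrophil markers, with S100a9 the most abundant, summed to 212 and 235 FPKM in WT PBS, 1943 and 1983 FPKM in WT NMDA, 6.09 and 5.16 FPKM in shPax6 PBS and 66.4 and 73.0 FPKM in shPax6 NMDA libraries. In JNK3 KO libraries they summed to 155 and 169 FPKM after PBS and 13.1 and 13.9 FPKM after NMDA. The sums were highest in WT NMDA libraries. By gene, all 5 were called higher after NMDA in shPax6 retinas (median 3.19) and 3 in WT (median 2.77), and 4 were called lower in JNK3 KO retinas (median −3.52). Retnlg was listed at 0 in 1 shPax6 PBS library. The 5 erythrocyte markers, with Hbb-bs the most abundant, summed to 97.3 and 107 FPKM in WT PBS, 613 and 650.0 FPKM in WT NMDA, 50.3 and 28.7 FPKM in shPax6 PBS and 126 and 120.0 FPKM in shPax6 NMDA libraries. In JNK3 KO libraries their sums were 126 and 123 FPKM after PBS and 69.4 and 79.7 FPKM after NMDA. After NMDA 5 were called higher in WT and 4 in shPax6 retinas, and 1 lower in JNK3 KO retinas. Hbb-bt and Alas2 were listed at 0 in 1 or more of the shPax6 libraries.

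Glial markers moved as well. The 5 Müller glia markers, with Vim the most abundant, summed to 696 and 726 FPKM in WT PBS and 1414 and 1431 FPKM in WT NMDA libraries, to 789 and 749.6 and then 981 and 1059 FPKM in shPax6 libraries, and to 772 and 780.0 and then 1018 and 1048 FPKM in JNK3 KO libraries. By gene, 2 of the 5 were called higher and 3 lower after NMDA in WT (median −0.37), 2 higher and 1 lower in shPax6, and 3 higher and 1 lower in JNK3 KO retinas, so the WT sum went up while most of the list was called lower. The 5 markers of astrocytes and gliosis, with Lcn2 the most abundant, summed to 1036 and 1075 FPKM in WT PBS and 1069 and 1012 FPKM in WT NMDA libraries, to 714 and 699 and then 2451 and 2437 FPKM in shPax6 libraries, and to 822 and 794 and then 269.5 and 276 FPKM in JNK3 KO libraries. The 6 microglia markers, with Csf1r the most abundant, summed to 15.6 and 17.3 FPKM in WT PBS and 17.5 and 19.7 FPKM in WT NMDA libraries, to 27.0 and 25.1 and then 44.3 and 47.5 FPKM in shPax6 libraries, and to 19.8 and 17.7 and then 11.0 and 11.2 FPKM in JNK3 KO libraries. No marker of these 3 lists was at 0 in any library. The gliosis and microglia sums were highest in the shPax6 NMDA libraries. By gene, 3 of 4 tested gliosis markers and 1 of 5 tested microglia markers were called higher after NMDA in shPax6 retinas, and 1 higher and 2 lower (gliosis) and 1 higher and 3 lower (microglia) in WT. The counts lower in shPax6 were 0 in both lists, with 0 at an unadjusted p under 0.05 in limma. In JNK3 KO retinas each list had 2 lower and 0 higher, again with 0 higher unadjusted.

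Neurons differed between the groups too. The 9 markers of retinal ganglion cells (RGCs), with Thy1 the most abundant, summed to 564 and 585 FPKM in WT PBS, 316 and 335 FPKM in WT NMDA, 167 and 167 FPKM in shPax6 PBS and 55.3 and 48.8 FPKM in shPax6 NMDA libraries. In JNK3 KO libraries they summed to 579.5 and 537 FPKM after PBS and 139.7 and 140.4 FPKM after NMDA. By gene, 8 of 9 were called lower after NMDA in WT (median −2.24), 7 in shPax6 (median −2.60) and 6 in JNK3 KO retinas (median −1.92), while Thy1, which carries much of the sum, had 0.01, −1.14 and −2.09. Pou4f2 was listed at 0 in 1 shPax6 NMDA library. The 5 genes lower in shPax6 PBS than in WT PBS retinas were thus measured in retinas whose marker lists also differed. Of the lists given here, with 2 others left out of this text, called lower there were 6 of 9 RGC, 5 of 7 monocyte and macrophage, 5 of 5 neutrophil (median −4.11), 4 of 5 erythrocyte, 3 of 4 gliosis, 2 of 5 amacrine, 2 of 5 Müller glia, 2 of 4 lens, 1 of 4 horizontal cell and 1 of 4 endothelium markers tested. Called higher were 4 of 4 cone, 2 of 5 Müller glia, 1 of 7 monocyte and macrophage and 1 of 5 microglia markers. The 2 lists left out also held called markers, so this tally is not complete. The part of these cell types in the levels of the 10 genes was not tested.

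Further marker lists were cones (4 genes, Opn1sw the most abundant), horizontal cells (4, Calb1), amacrine cells (5, Gad1), endothelium (4, Cldn5), retinal pigment epithelium (4, Ttr) and lens (4, Crybb2). The 2 lists left out of this text also held markers called after NMDA, so the account of cell types is not complete. Cone markers summed to between 133 and 850.2 FPKM, lowest in shPax6 NMDA and highest in shPax6 PBS libraries. The sums were for horizontal cells 7.80 (shPax6 NMDA) to 25.5 FPKM (WT PBS) and for amacrine cells 81.0 (shPax6 NMDA) to 235 FPKM (WT PBS). All 5 amacrine markers were called lower after NMDA in both WT and shPax6 retinas, and in JNK3 KO retinas 0 were called either way (median −0.14), with 1 higher and 2 lower at an unadjusted p under 0.05 in limma. Cone markers called lower were 2 of 4 in WT and all 4 in each of the others, and horizontal cell markers 4 of 4 in WT, 1 in shPax6 and 0 in JNK3 KO retinas (0 unadjusted in limma). Endothelium ranged from 5.31 (shPax6 PBS) to 18.4 FPKM (WT NMDA). Pigment epithelium ranged from 2.65 (shPax6 NMDA) to 57.7 FPKM (WT NMDA), with Best1 listed at 0 in 3 libraries, and lens from 88.0 (shPax6 PBS) to 282 FPKM (WT NMDA). After NMDA 1 of 4 endothelium markers was called higher in WT and 1 in shPax6 retinas. Of 2 pigment epithelium markers tested, 1 was higher and 1 lower in WT and both were lower in shPax6 retinas. Of 4 lens markers, 4 were higher in WT, 2 higher and 1 lower in shPax6, and 3 higher in JNK3 KO retinas. Markers of tissue beside the retina thus differed in level between libraries, and their part in the levels of the 10 genes was not tested.

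**Figure D5:**
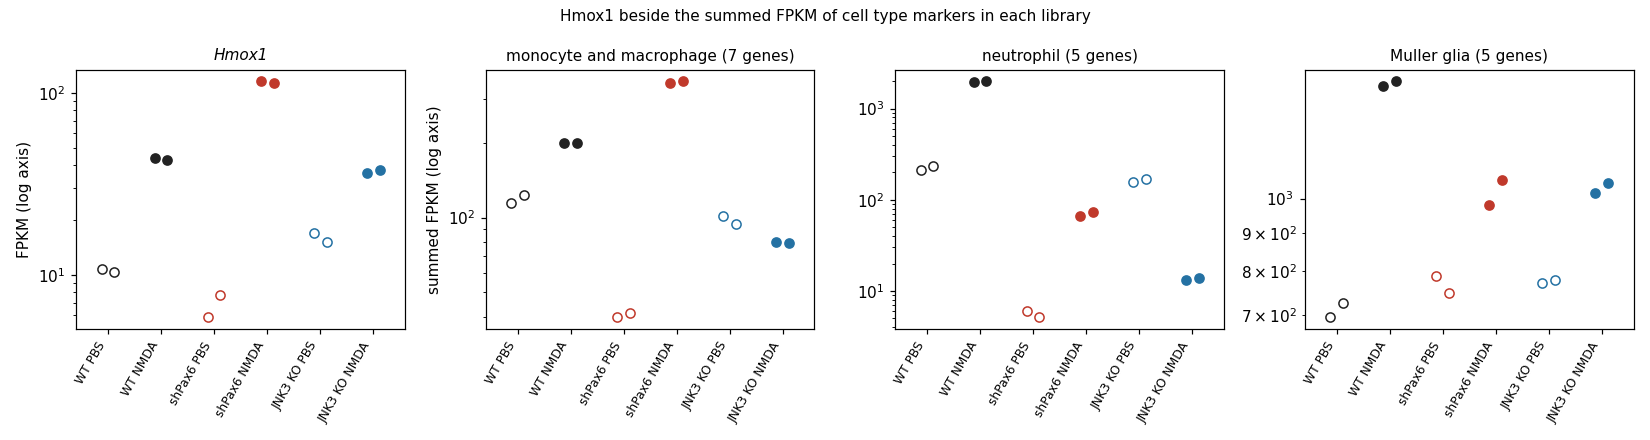
Level of Hmox1 and summed levels of monocyte and macrophage, neutrophil and Müller glia markers in each library (vertical axes, FPKM, log scale) by group (horizontal axis), with open circles for PBS and filled circles for NMDA. Hmox1 and the monocyte and macrophage sum are both lowest in shPax6 PBS and highest in shPax6 NMDA libraries, whereas the neutrophil sum is highest in WT NMDA libraries, at 1943 and 1983 FPKM.

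The genes whose pattern over the 12 libraries was most like that of Nfe2l2, by Pearson r on the log2 scale among 16470 genes, were Clec7a (0.951), Aldh18a1 (0.941) and Rhoj (0.938). Clec7a stood at 11.1 and 16.1 FPKM in shPax6 NMDA and 3.73 and 2.40 FPKM in WT NMDA libraries. Those most like Hmox1 were Spp1 (0.982), Hspa5 (0.981) and Pisd (0.979). Spp1 stood at 168 and 178 FPKM in shPax6 NMDA, 71.3 and 66.1 FPKM in WT NMDA and 84.4 and 84.4 FPKM in JNK3 KO NMDA libraries. The 12 libraries fall into 6 groups, so these r describe how the groups differ and carry no p.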

How the data were processed

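RNA of whole mouse retina was sequenced by the authors in 12 libraries (TruSeq mRNA, paired-end), 2 in each of 6 groups. Per the labels, reads were aligned with STAR 2.7.1a to GRCm38.p6 and counted with RSEM 1.3.3, and the authors deposited FPKM values for 55487 genes and 142699 transcripts, the values used here. The authors' own tests, with edgeR 3.36.0 in R 4.1.0, were not used here. GENCODE M21 matched 99.53% of the genes and 99.14% of the transcripts and gave positions and lengths, and promoter windows came from RefSeq annotation of the same build.

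Values were taken as log2(FPKM + 0.1), the 16471 genes whose mean exceeded 1 FPKM in 1 or more of the groups were kept, and limma 3.58.1 (R 4.3.3, lmFit and eBayes with an intensity trend) fitted 6 group means over all 12 libraries with 6 residual degrees of freedom. Tests were two-sided, and p-values were adjusted by Benjamini-Hochberg over all genes tested, with a threshold of 0.05. The 7 comparisons were NMDA against PBS in each of the 3 genotypes, the differences in that response between WT and each of the other two, and the PBS groups of shPax6 and JNK3 KO against WT PBS. The fit was tested on simulated data, where it fell short of the recovery of planted changes first asked for. A fault in the simulation was then corrected, and the criterion was replaced after its result had been seen, though recovery was still short of the first one. Tables and figures were made with Python 3.11.15, pandas 2.3.3, numpy 2.4.6 and matplotlib 3.10.9.

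The alternatives were a pseudocount of 1 or 0.5, no filter (27761 genes), a filter that asks the mean over the 12 libraries to exceed 1 FPKM (14623 genes), TPM, 75th-percentile scaling, quantile normalization, only the groups compared, no intensity trend, the replicate number as a block, removal of a lowess curve (span 0.3) on transcript length from each library, the most abundant transcript, another call rule, and each library left out in turn. When a library was left out, the lone library of its group was assumed to vary like the others. Leaving out both WT NMDA libraries was chosen after seeing the data.

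The genes, the 8 pathway lists beside them and the cell type marker lists reported were chosen with earlier results of these data known. Genes named in the text are the 10 genes, the 2 called genes of each pathway list with the largest absolute fold change in WT and the 2 in either other genotype, and the 3 tested genes with the highest Pearson r with Nfe2l2 and with Hmox1. Fragment counts were not used here, so depth was estimated from the median of the values inside a fixed window of low FPKM.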

Additional observations from a re-analysis of the deposited data

Results flagged for a closer look

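The responses to NMDA differed between genotypes in 14 cases, each by a limma test of the difference itself over 2 libraries a group. WT minus shPax6 was −0.93 in Nfe2l2, −1.48 in Slc7a11, −0.79 in Gclc, −1.52 in Gclm, −0.79 in Gsr, −1.01 in Txnrd1, −2.05 in Hmox1 and −1.77 in Osgin1. The median of all genes in that difference was −0.28. WT minus JNK3 KO was 0.83 in Hmox1, 0.39 in Srxn1, 1.49 in Osgin1, −0.70 in Gclm, −1.26 in Gclc and −0.68 in Txnrd1, beside a median of −0.03. Osgin1 and Hmox1 rose in WT by less than in shPax6 retinas, and the difference from JNK3 KO had the opposite sign in both. These differences rest on the WT NMDA libraries, whose FPKM sums and length trend stood apart. After length correction Slc7a11 and Gclc were no longer called in WT minus shPax6, nor were Hmox1 and Txnrd1 in WT minus JNK3 KO. Under other alternatives, calls in WT minus shPax6 were lost by Slc7a11 (−0.73), Gclc (−0.35) and Gsr (−0.53) with quantile normalization and by Gsr (−0.35) with the most abundant transcript. In WT minus JNK3 KO, Srxn1 turned to −0.21 with TPM, but was 0.41 relative to the TPM median, beside 0.42 relative to the median as deposited. Srxn1 lost its call also with 75th-percentile scaling (0.30) and quantile normalization (0.09). Hmox1 lost its call with TPM (0.24), where it was 0.85 relative to the TPM median, beside 0.86 as deposited. Gclm (−0.05) and Txnrd1 (−0.45) lost theirs with the most abundant transcript, and Gclm also with no filter, no intensity trend and 6 of the 12 left-out libraries. Srxn1 lost its call with 2 of them. The cause of these differences was not tested.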

How the results depend on the processing

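Over the processing alternatives, 815 of 880 values for single genes kept their call or lack of one, though 14 uncalled values among them changed sign, 36 lost a call, 24 gained one and 5 reversed. The 5 were, with length correction, Txnrd1 in WT at 0.27 and Slc7a11 in WT minus JNK3 KO at 1.48, on the TPM scale Srxn1 at −0.05 in WT and −0.21 in WT minus JNK3 KO, and with the most abundant transcript Gsr in WT at 0.43. The TPM scale moves all genes alike. Relative to the TPM median Srxn1 was at 0.61 and 0.41, beside 0.62 and 0.42 relative to the median as deposited, and so did not turn relative to all genes. The cause was not tested.

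The counts of the 10 genes that moved most, by over 1.5 times or from 0, are these. In WT 1 was called lower, which became 2 with a pseudocount of 1 or 0.5, the filter on the mean of all 12 libraries, the replicate block or length correction, 3 with 75th-percentile scaling and 5 with TPM. The 3 called higher in WT became 1 with TPM and 1 with the call rule of an unadjusted p under 0.05 and a change above 1. Of all genes in WT, 26.0% were called higher and 33.8% lower, and with TPM 13.6% and 50.2%. Both counts thus moved with all genes on that scale. In shPax6 retinas the 8 called higher (19.1% of all genes) became 3 with only the groups compared (4.1%), which leaves fewer libraries, and 4 with that call rule. The 0 called lower by limma (0 at an unadjusted p under 0.05), beside 11.0% of all genes, became 1 with 75th-percentile scaling (15.2%) and 1 with quantile normalization (16.6%). In JNK3 KO retinas the 2 called lower (6.1% of all genes) became 1 with no filter (2.95%), no intensity trend (4.74%) or the replicate block (5.55%). They became 0 with only the groups compared (5.68%), the most abundant transcript (4.04%) or the call rule. The 2 called higher there (4.33%) became 1 with the most abundant transcript (3.24%) or the call rule.

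In WT minus shPax6 the 8 called lower (31.4% of all genes) became 5 with quantile normalization (22.9%) or the call rule. In WT minus JNK3 KO the 3 called higher (23.5% of all genes) became 1 with TPM (12.8%) or the call rule. The 3 called lower there (27.9%) became 1 with the most abundant transcript (24.7%) or the call rule. In shPax6 PBS against WT PBS the 5 called lower (11.2% of all genes) became 1 with only the groups compared (3.65%) or the call rule. In JNK3 KO PBS against WT PBS the 0 called higher (1 at an unadjusted p under 0.05) became 1 with a pseudocount of 1 or 0.5 or the filter on the mean of all 12 libraries. Smaller moves were 4 called higher in WT with quantile normalization, length correction or the most abundant transcript, 7 higher in shPax6 with the most abundant transcript, and 3 higher in JNK3 KO with quantile normalization or no intensity trend. In WT minus shPax6, 9 were lower with TPM, 6 with length correction and 7 with the most abundant transcript. In WT minus JNK3 KO, 2 were higher with 75th-percentile scaling and 4 with the most abundant transcript, and 2 were lower with no filter, no intensity trend or length correction and 4 with TPM. In shPax6 PBS 4 were lower with the most abundant transcript. The cause was not tested.

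With 1 library left out, 797 of 840 values kept their call or lack of one, with 9 uncalled values changing sign, 27 lost it, 16 gained one and 0 reversed. The counts higher and lower ranged from 2 to 3 and 1 to 3 in WT, 8 to 8 and 0 to 1 in shPax6, and 1 to 3 and 0 to 2 in JNK3 KO retinas. They ranged from 0 to 0 and 8 to 8 in WT minus shPax6, 2 to 4 and 2 to 3 in WT minus JNK3 KO, 0 to 0 and 2 to 6 in shPax6 PBS, and 0 to 1 and 0 to 0 in JNK3 KO PBS against WT PBS. Nqo1, Osgin1 and Slc7a11 had the fewest estimated fragments, and the part of depth in their results was not tested.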
